A study of Mus musculus with 61 samples.

Results

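The genes described here encode enzymes and regulators of cholesterol and fatty acid synthesis. They are 29 of the 55052 genes in the table of expression values. They were chosen by name as members of these pathways and of the group of genes that the SREBP transcription factors control. The choice of genes used no measured value, though earlier results of these data were known. The matching of controls used the levels of the mitochondrial transcripts mt-Co2 and mt-Co3. All 29 were found in the table, and all 29 passed the filter on low values (a mean of at least 1 FPKM in at least 1 condition), which left 17098 genes for testing. FPKM is the number of fragments scaled to the length of the transcript and to the total of mapped fragments, so that levels of different genes can be compared per length.

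Cells make cholesterol from acetyl-CoA. The mevalonate steps turn acetyl-CoA into the isoprenoid farnesyl diphosphate, squalene synthase commits this to sterols, and the late steps turn lanosterol into cholesterol. Fatty acid synthesis branches off at acetyl-CoA carboxylase, and desaturases and elongases then modify the chain. The SREBP proteins, encoded by Srebf1 and Srebf2, are held in the endoplasmic reticulum by the Insig proteins when sterols are abundant. When sterols are scarce they move to the Golgi, are cleaved and enter the nucleus, where they raise transcription of nearly all of these genes together. In the embryo, cholesterol is also needed for the processing of Hedgehog proteins and for signalling through Smoothened.

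RNA was sequenced from stembryos, also called gastruloids, which grow from aggregated mouse embryonic stem cells, receive a pulse of the Wnt agonist Chiron, elongate and form axial tissues. A wild-type time course had 2 libraries at each of 8 stages, 72, 84, 96, 108, 120, 132, 144 and 168 h after aggregation. Further wild-type libraries outside the time course were made at 96 h (4), 120 h (4) and 144 h (2). The wild-type line was EmbryoMax 129/SVEV, and a library held pooled stembryos. There were 8 mutant genotypes at the HoxD locus, each with 2 libraries per stage. Del(CBS1), Del(CBS2), Del(CBS1-2) and Del(CBS4) lack the CTCF binding sites in their names, and Del(CBS1-2) was made from Del(CBS1) cells. Del(d1-d4) lacks the region from Hoxd1 to Hoxd4, and Ins(2xCBS-d4d8) carries a cassette of 2 additional CTCF sites between Hoxd4 and Hoxd8. Del(CBS1-5) lacks the sites from CBS1 to CBS5 and Del(sub-TAD1) lacks a flanking regulatory domain. The cells of these last genotypes came from blastocysts of mice kept on BL6 and CBA hybrids, and Del(sub-TAD1) also carried a fosmid transgene with Mtx2. Line background and deletion cannot be told apart in them. Del(CBS1), Del(CBS2), Del(CBS1-2), Del(d1-d4) and Ins(2xCBS-d4d8) were sampled at 96 h and 120 h, Del(CBS4) at 120 h and 144 h, Del(CBS1-5) at 96, 120 and 144 h, and Del(sub-TAD1) at 96 h (3 libraries) and 120 h.

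The 61 libraries fell apart technically. In 28 of them the mitochondrial transcripts mt-Co2 and mt-Co3 both exceeded 100 FPKM, and in the other 33 both were below 4 FPKM. They are called mt-high and mt-low libraries here. The time course, replicate 4 of the wild type at 96 h and 120 h, the wild type at 144 h, Del(sub-TAD1) at 96 h, Del(CBS1-5) at 144 h, and Ins(2xCBS-d4d8) and Del(CBS4) at all stages were mt-low, and all other libraries were mt-high. Each mutant was compared only with wild-type libraries of its stage on the same side, 3 at 96 h and at 120 h on either side and 4 at 144 h, so that mutants of one stage and side share their controls. The depth inferred from the steps of the FPKM values was 15 to 38.9 M (mega) fragments, with a median of 24 M. The summed level of the 5 pluripotency markers fell over the time course from 1301 and 1310 FPKM at 72 h to 42.8 and 54.3 FPKM at 168 h, while the 4 spinal cord markers summed to between 111 and 125 FPKM at 168 h. The paper calls the samples in its figures of mutant RNA levels independent, and states that quantified experiments had biological replicates. Nothing in the labels says whether replicates came from separate cultures, so p-values measure only the spread between these libraries. As the samples were bulk RNA, fewer cells of a type and less RNA per cell cannot be told apart.

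The promoters of 3 genes that were lower in a mutant are shown, chosen among those with an entry in the table used. Hmgcs1 encodes the cytosolic HMG-CoA synthase, Mvd the last enzyme of the mevalonate steps before isopentenyl diphosphate, and Cyp51 the lanosterol demethylase. The sequences are from RefSeq on GRCm38.p6, from 250 bases before to 50 bases after the annotated start. They cover chr13:119690101-119690400 on the plus strand for Hmgcs1, chr8:122443373-122443672 on the minus strand for Mvd and chr5:4104648-4104947 on the minus strand for Cyp51, and are written 5′ to 3′ in the direction of the gene. Capitals mark the sterol regulatory core TCACNCCAC and the CCAAT box, on either strand.

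Hmgcs1: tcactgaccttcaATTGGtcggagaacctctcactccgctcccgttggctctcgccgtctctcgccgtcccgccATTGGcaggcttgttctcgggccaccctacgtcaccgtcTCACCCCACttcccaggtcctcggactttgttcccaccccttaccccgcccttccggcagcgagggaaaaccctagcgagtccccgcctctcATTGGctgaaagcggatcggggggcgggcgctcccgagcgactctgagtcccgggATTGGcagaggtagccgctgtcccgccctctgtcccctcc
Mvd: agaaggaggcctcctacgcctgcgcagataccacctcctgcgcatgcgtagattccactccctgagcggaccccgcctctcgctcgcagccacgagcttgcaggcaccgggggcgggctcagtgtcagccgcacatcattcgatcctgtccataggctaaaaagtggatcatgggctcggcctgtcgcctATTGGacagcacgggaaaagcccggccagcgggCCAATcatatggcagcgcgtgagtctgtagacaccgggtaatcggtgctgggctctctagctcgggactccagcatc
Cyp51: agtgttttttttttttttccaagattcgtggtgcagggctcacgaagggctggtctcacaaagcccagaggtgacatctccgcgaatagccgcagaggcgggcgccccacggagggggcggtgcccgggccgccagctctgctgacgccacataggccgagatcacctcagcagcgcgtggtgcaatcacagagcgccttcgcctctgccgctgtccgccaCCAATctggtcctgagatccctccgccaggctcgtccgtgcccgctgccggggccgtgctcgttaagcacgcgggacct

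The table of promoters held 27 windows for 22 of the 29 genes. It had no entry for Fdps, Fdft1, Sqle, Stard4, Scd1, Scd2 and Fads1. The core TCACNCCAC, read on both strands, was in 1 window, that of Hmgcs1 at position -137 from the start, and in 1.24% of all 32851 windows. Its shorter part CACNCCA was in 18.5% of the windows of the set and 18.4% of all windows. The CCAAT box was in 70.4% of the windows of the set, for 18 genes, and in 37.4% of all windows. The GC box GGGCGG was in 74.1% and 35.7%, and the E-box CACGTG in 14.8% and 7.15%. These are matches of letters in short windows and not binding sites.

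Over the wild-type time course the set changed within narrow limits, with a late rise. The moderated F test over the 8 stages called 26 of the 29 genes, against 71.7% of all genes tested, and the exceptions were Idi1, Nsdhl and Srebf1. The ratio of the highest to the lowest stage mean lay between 1.41 and 2.25, with a median of 1.63. The stage with the highest mean was 168 h for 17 genes, 144 h for 2, 72 h for 7 and another stage for 3.

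**Figure D1:**
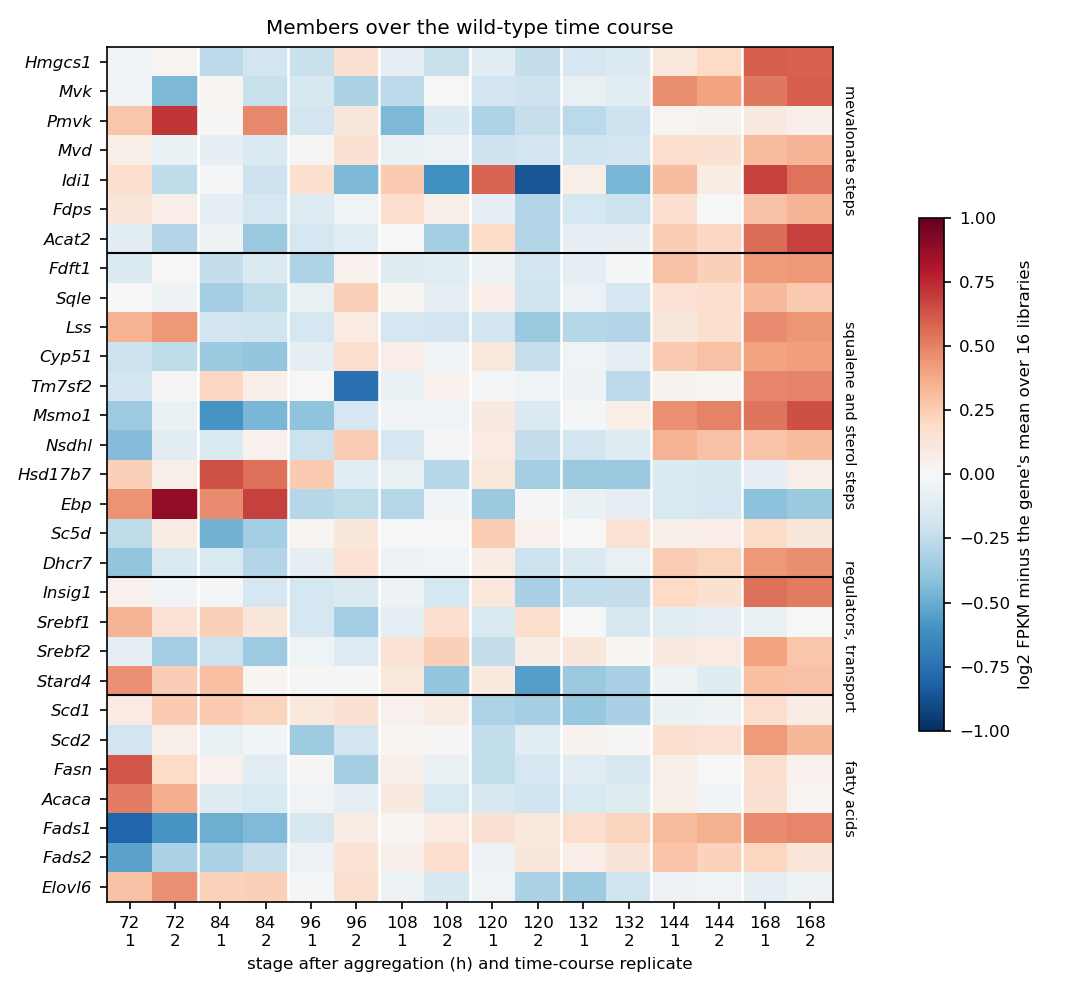
Heatmap of the 29 genes, grouped by role, in the 16 libraries of the wild-type time course (columns, from 72 h to 168 h after aggregation). Colour gives log2 FPKM minus the gene's mean over these libraries. Most rows are highest in the 168 h libraries, while Ebp and Acaca are highest before 96 h.

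Among the mevalonate enzymes, Hmgcs1 was at 212 and 223 FPKM at 72 h, at 195.0 and 199.6 FPKM at 132 h, and at 331 and 329.9 FPKM at 168 h. Both libraries at 168 h were thus above every earlier library of the time course. Mvk, the mevalonate kinase, was at 32.6 and 31.8 FPKM at 132 h and at 49.4 and 51.8 FPKM at 168 h. Acat2, the cytosolic thiolase that opens the pathway, went from 82.3 and 82.0 FPKM to 127.9 and 140.0 FPKM between the same stages. Pmvk, the phosphomevalonate kinase, had its highest values at 72 h instead, at 55.4 and 74.8 FPKM, against 48.7 and 47.3 FPKM at 168 h. Idi1, the isopentenyl diphosphate isomerase, was higher in replicate 1 than in replicate 2 at every stage, for example at 26.4 and 9.71 FPKM at 120 h.

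Of the squalene and sterol enzymes, Msmo1, the methylsterol monooxygenase, was lowest at 84 h, at 52.4 and 57.6 FPKM, and reached 114.8 and 123.7 FPKM at 168 h. Lss, the lanosterol synthase, was high at both ends, at 41.2 and 43.6 FPKM at 72 h and at 44.8 and 44.0 FPKM at 168 h, with 26.6 and 26.4 FPKM at 132 h. Other enzymes were highest early. Ebp, the sterol isomerase, was at 27.1 and 36.7 FPKM at 72 h and at 14.9 and 15.3 FPKM at 168 h, without overlap. Hsd17b7, which reduces the ketone at C3 after demethylation, peaked at 84 h with 21.3 and 20.0 FPKM and was at 10.6 FPKM in both libraries at 132 h.

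Among the regulators, Insig1, which retains the SREBP proteins and is itself their target, was at 32.2 and 32.4 FPKM at 132 h and at 55.9 and 54.6 FPKM at 168 h. Stard4, a cytosolic sterol carrier, was at 14.5 and 15.01 FPKM at 132 h and at 23.2 and 23.0 FPKM at 168 h, near its level of 25.8 and 22.2 FPKM at 72 h. Srebf1 ranged from 28.7 to 46.0 FPKM and Srebf2 from 63.7 to 108 FPKM over all stages.

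The fatty acid genes did not share a course. Fads1 and Fads2, the delta-5 and delta-6 desaturases, were lowest at 72 h. Fads1 was at 44.5 and 51.0 FPKM at 72 h and at 106.7 and 108.0 FPKM at 168 h, the largest range of the set. Fasn, the fatty acid synthase, was highest at 72 h, at 164 and 122 FPKM, and was at 119 and 110 FPKM at 168 h. Acaca, the acetyl-CoA carboxylase, fell from 14.3 and 12.9 FPKM at 72 h to 9.20 and 9.04 FPKM at 84 h. Scd2, a stearoyl-CoA desaturase, had the highest level per length of the set at 168 h, at 704 and 658 FPKM.

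Tested step by step, few of these changes passed the threshold of an adjusted p of 0.05. From 72 h to 84 h, 2 genes rose and 3 fell, with 13% of all genes higher and 9.02% lower. The genes that fell were Lss (log2 change -0.59 ± 0.12, SE), Acaca (-0.57 ± 0.10) and Fasn (-0.44 ± 0.14), and those that rose were Hsd17b7 and Fads1. From 84 h to 96 h, 5 rose and 5 fell, with 10.5% of all genes higher and 15.4% lower. Sc5d, Cyp51, Fads1, Sqle and Fads2 rose, by 0.31 to 0.48 on the log2 scale, while Ebp, Hsd17b7, Tm7sf2, Srebf1 and Scd2 fell. Ebp fell most, by 0.84 ± 0.10. Leaving out replicate 2 at 96 h took this step to 3 calls, and leaving out replicate 1 or 2 at 84 h to 4 or 6. Between 96 h and 132 h there were only 2 calls in the 3 steps, Scd2 higher at 108 h (0.29, with 6.74% of all genes higher and 7.14% lower) and Scd1 lower at 120 h (-0.37, with 3.83% of all genes lower and 7.56% higher). Neither held without either library at 108 h. From 120 h to 132 h limma called no gene of the set, 2 had an unadjusted p under 0.05, and 4.87% of all genes were called, 2.67% higher and 2.2% lower; without replicate 2 at 120 h there were 3 lower calls.

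The late rise came in small increments in most of the set, while the log2 change of Ebp was below 0 at both steps (-0.08 and -0.23, neither called). From 132 h to 144 h, Mvk (0.52 ± 0.12), Lss (0.42 ± 0.12) and Insig1 (0.42 ± 0.13) rose and no gene fell, with 5.08% of all genes higher and 5.04% lower. For 25 of the 29 genes the 2 libraries at 144 h lay higher than those at 132 h, which held for 28.1% of all genes. From 144 h to 168 h, Hmgcs1 (0.44 ± 0.13) and Tm7sf2, a sterol reductase (0.46 ± 0.16), rose, with 7.75% of all genes higher and 7.29% lower. Leaving out any one of the 4 libraries of a step left 1 call in the first and none in the second. The wild-type libraries outside the time course, also mt-low, gave another level at 144 h for 6 genes, with 28.5% of all genes called, and Mvk was at 31.8 and 30.1 FPKM there, against 47.2 and 45.1 FPKM in the time course.

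A longer span, chosen after the values were seen, sums these increments. At 168 h against 132 h, 19 genes were higher and 1, Ebp, was lower, with 12.6% of all genes higher and 12.1% lower. The median log2 change was 0.47, and for 25 genes the 168 h libraries were above those at 132 h, against 30.5% of all genes. The higher genes were 6 of the 7 mevalonate enzymes, 8 of the 11 squalene and sterol enzymes, Insig1 and Stard4 of the 4 regulators, and Scd1, Scd2 and Fads1 of the 7 fatty acid genes. Idi1 (0.81 ± 0.27), Insig1 (0.77 ± 0.13), Hmgcs1 (0.74 ± 0.13) and Lss (0.74 ± 0.12) changed most. In a fit of the 16 time-course libraries alone, 14 genes were higher and none was lower. Leaving out any one library at 132 h or 168 h left 13 to 17 higher genes, and the call of Ebp was lost each time. Over the whole course, from 72 h to 168 h, 17 genes were higher and 4 were lower, with 53.4% of all genes called, 27.7% higher and 25.7% lower. The libraries at 168 h were above those at 72 h for 20 of the 29 genes and for 34.9% of all genes. The 4 spinal cord markers summed to 26.7 and 48.7 FPKM at 132 h and to 111 and 125 FPKM at 168 h, and the 4 somite markers fell from 372 and 405 FPKM to 68.0 and 75.4 FPKM. The 4 markers of neuro-mesodermal progenitors went from between 141 and 144 FPKM to between 44.2 and 52.4 FPKM. The part of these markers in the late rise was not tested.

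Of 24 further genes of these pathways, 13 were higher at 168 h than at 132 h and none was lower. The largest changes were those of Acss2, an acetyl-CoA synthetase (1.06 ± 0.12), and Mid1ip1, which activates acetyl-CoA carboxylase (0.98 ± 0.24).

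In the mutants, 10 of the 17 comparisons with matched wild type called none of the 29 genes. The other 7 gave 51 calls of a lower level and 2 of a higher level. Of the 29 genes, 23 were lower in at least 1 mutant, 9 were called in at least 3 comparisons, and Idi1, Tm7sf2, Msmo1, Nsdhl and Ebp were called in none. The same counts were not made over all genes, of which single comparisons called between 0.0526% and 10.8% lower. Comparisons of one stage and side share their controls, so repeated calls of a gene are not independent. The comparisons with several lower genes were those of Ins(2xCBS-d4d8) and Del(sub-TAD1) at 96 h, Ins(2xCBS-d4d8) and Del(CBS4) at 120 h, and Del(CBS1-5) at 96 h and 144 h.

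**Figure D2:**
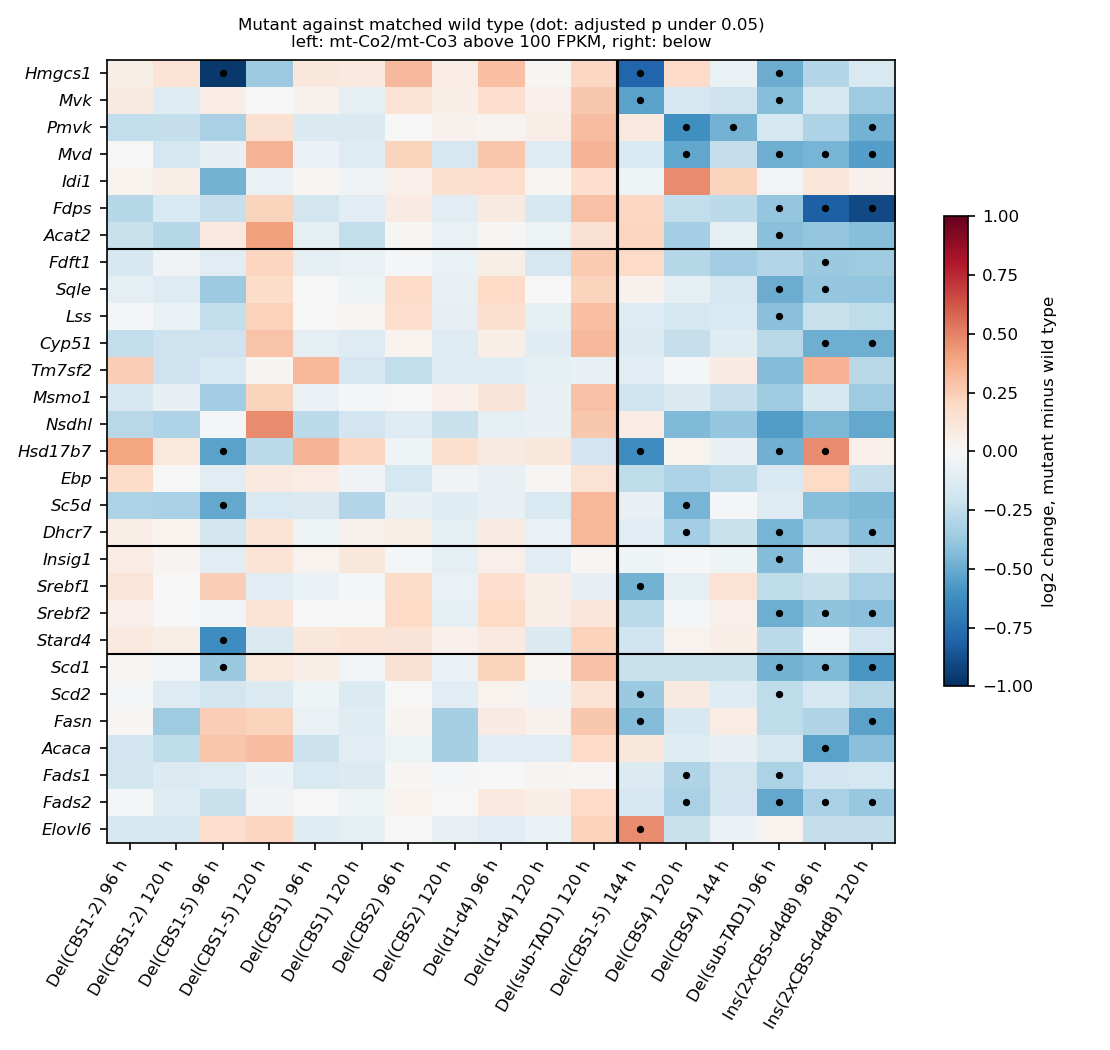
Log2 change of the 29 genes (rows, grouped by role) in the 17 comparisons of a mutant with matched wild type (columns). Colour gives the change on the log2(FPKM + 0.1) scale, a dot marks an adjusted p under 0.05, and the line separates mt-high comparisons on its left from mt-low ones on its right. Dots to the left of the line are in the Del(CBS1-5) column at 96 h only.

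Ins(2xCBS-d4d8) had the lowest Fdps of the series. Fdps encodes farnesyl diphosphate synthase, at the branch between sterols and other isoprenoids. It was at 87.4 and 95.9 FPKM in the mutant at 96 h, against 154.7, 164.6 and 165.2 FPKM in the wild type, and at 90.4 and 84.7 FPKM at 120 h, against 138, 161 and 199 FPKM. These 4 libraries held the 4 lowest values among all 61, followed by 103 and 104 FPKM in 2 libraries of Del(sub-TAD1). The log2 changes were -0.82 ± 0.13 (adjusted p = 0.000209) at 96 h and -0.91 ± 0.13 (adjusted p = 7.52e-05) at 120 h. Leaving out any one library moved them to between -0.88 and -0.75 and to between -1.03 and -0.77, and all of these passed the threshold. These fits take the spread from all libraries, and in a fit of the compared libraries alone Fdps was not called.

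At 96 h, 9 genes of the set were lower in Ins(2xCBS-d4d8) and 1 was higher, with 5.52% of all genes lower and 4.4% higher. After Fdps the lower genes were Acaca (-0.54), Cyp51 (-0.49), Mvd (-0.47), Scd1 (-0.44), Srebf2 (-0.41), Sqle (-0.39), Fdft1 (-0.37) and Fads2 (-0.33). Acaca was at 7.06 and 7.17 FPKM against 9.44 to 12.1 FPKM, Cyp51 at 40.8 and 44.3 FPKM against 53.1 to 64.0 FPKM, and Mvd at 32.4 and 35.3 FPKM against 44.2 to 50.6 FPKM. Scd1 was at 55.1 and 54.2 FPKM against 66.2, 77.3 and 80.2 FPKM. None of the 9 genes overlapped with its controls, but the gaps differed. Srebf2 was at 49.8 and 56.9 FPKM, close to the 58.9 FPKM of wild-type replicate 4 and further from the 79.6 and 74.7 FPKM of the time course. Sqle was at 55.9 and 63.3 FPKM against 72.2 to 89.6 FPKM, and Fdft1, the squalene synthase, at 27.8 and 30.3 FPKM against 34.5 to 44.1 FPKM. Fads2 was at 91.1 and 92.9 FPKM against 101.9 to 132 FPKM. Hsd17b7 was the gene that was higher, at 17.8 and 16.5 FPKM against 9.06, 12.7 and 16.4 FPKM, a narrow gap. For 18 of the 29 genes both mutant libraries were below all controls, which held for 17.4% of all genes, and the median log2 change was -0.30.

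At 120 h, 9 genes were lower and none was higher, with 2.88% of all genes lower and 1.47% higher. They were Fdps, Scd1 (-0.58), Mvd (-0.55), Fasn (-0.54), Cyp51 (-0.49), Pmvk (-0.47), Dhcr7, the last reductase of the pathway (-0.43), Srebf2 (-0.42) and Fads2 (-0.38). Scd1 was at 45.4 and 41.6 FPKM against 58.3, 57.2 and 82.4 FPKM. Fasn was at 65.4 and 73.9 FPKM against 89.9, 94.9 and 120 FPKM. In both cases the highest control was wild-type replicate 4, as it was for Mvd, Cyp51, Pmvk and Dhcr7. Mvd was at 29.7 and 30.5 FPKM against 39.3, 39.8 and 54.6 FPKM, and Cyp51 at 44.5 and 41.6 FPKM against 48.4, 60.97 and 74.6 FPKM. Dhcr7 was at 38.2 and 39.2 FPKM against 45.1, 55.2 and 56.8 FPKM. For 21 of the 29 genes the mutant libraries were below all controls, against 17.2% of all genes, and the median was -0.36.

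**Figure D3:**
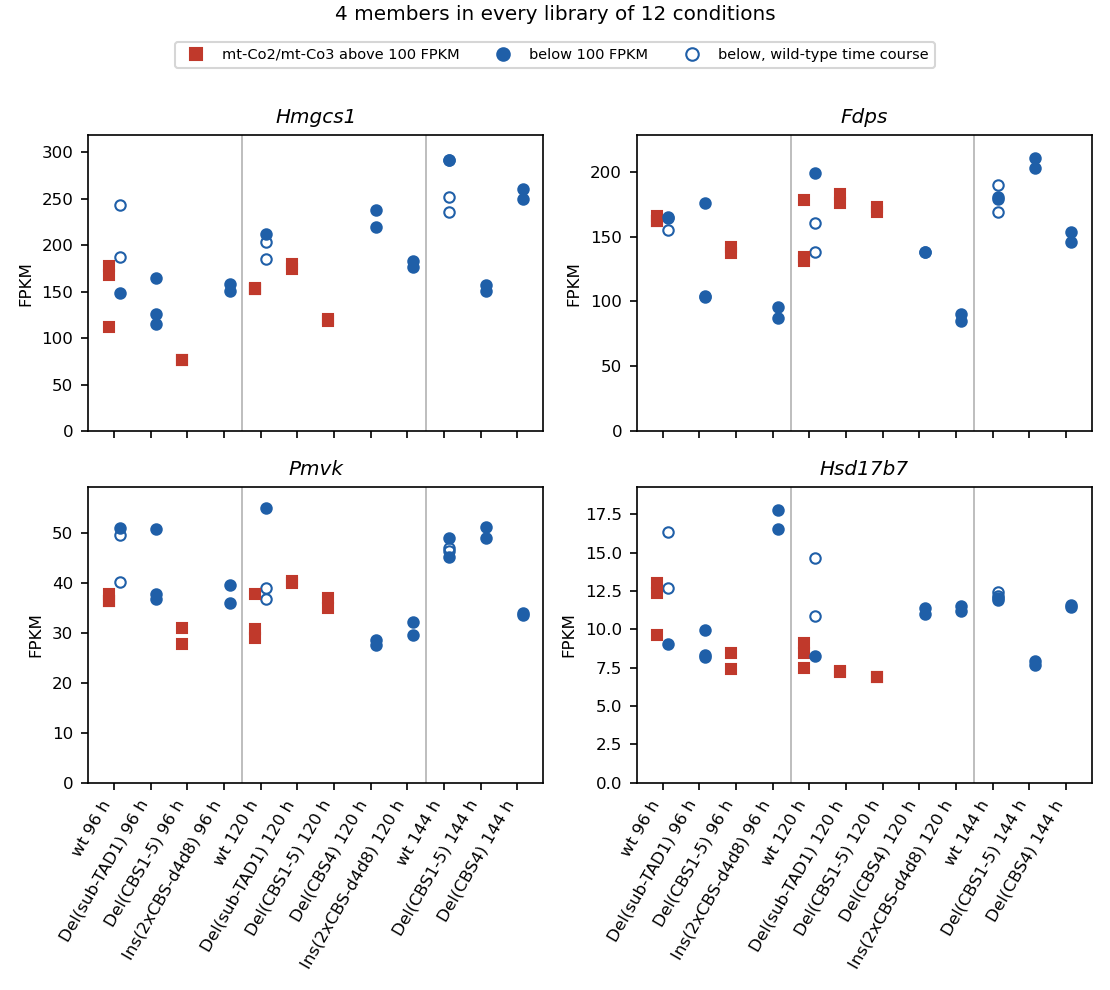
Levels in FPKM of Hmgcs1, Fdps, Pmvk and Hsd17b7 in each library of 12 conditions (horizontal axis: genotype and stage). Red squares are mt-high libraries and blue symbols mt-low ones, with open symbols for the time course. Fdps in the 4 Ins(2xCBS-d4d8) libraries and Hmgcs1 in the Del(CBS1-5) libraries lie below all of their controls.

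The other calls in Ins(2xCBS-d4d8) rested on few libraries. Leaving out either mutant library left 1 call at 96 h and 2 or 1 at 120 h, leaving out replicate 2 of the time course left 2 at 96 h and gave 14 at 120 h, and leaving out wild-type replicate 4 left 3 at 120 h. In a fit of the compared libraries alone no gene of the set was called, Fdps included. Beside the set, 6 of the 24 further pathway genes were lower at 96 h and 1 was higher, led by Mid1ip1 (-0.94 ± 0.23). At 120 h 4 were lower and none was higher. The pluripotency markers summed to 77.2 and 87.6 FPKM in the mutant at 96 h, within the 64.1 to 95.5 FPKM of the controls, and the somite markers to between 50.9 and 128 FPKM, against 123 to 288 FPKM. The markers of neuro-mesodermal progenitors summed to 446 to 499 FPKM in the mutant, above the 152 to 409.7 FPKM of the controls, and the 5 visceral endoderm and hepatic markers to 1.57 and 1.58 FPKM, against at most 0.26 FPKM. The part of these markers in the result was not tested.

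In Del(CBS1-5), Hmgcs1 was below all controls at each of 3 stages. At 96 h it was at 76.5 and 76.6 FPKM, against 178, 168 and 112 FPKM in the wild type, a log2 change of -0.97 ± 0.14 (adjusted p = 1.56e-05). These are the lowest Hmgcs1 values among the 61 libraries. That rank crosses the sides, and in the wild type at 96 h Hmgcs1 was lower in mt-high than in mt-low libraries (-0.34 ± 0.12). At 120 h it was at 120.0 and 118.6 FPKM against 153.9, 152.8 and 152.7 FPKM, which did not pass the threshold (-0.36). At 144 h it was at 157 and 150.2 FPKM, against 236 to 292 FPKM, and the change was -0.79 ± 0.13 (adjusted p = 1.5e-05). Both called changes passed without any one of the libraries compared. The call at 96 h was lost in a fit of the compared libraries alone. The effects at the 3 stages did not pass the test of their difference for Hmgcs1, and the mt-high and mt-low sides are not the same at 96 h and 144 h.

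The other genes of the set called at 96 h in Del(CBS1-5) were all lower. They were Stard4 (-0.62), Hsd17b7 (-0.54), Sc5d, the sterol desaturase (-0.51), and Scd1 (-0.37), so that 5 genes were lower and none higher, with 3.75% of all genes lower and 8.12% higher. Stard4 was at 10.1 and 9.90 FPKM against 13.4 to 17.4 FPKM, and it kept its call without each library in turn. Sc5d was at 12.6 and 13.1 FPKM against 17.6 to 19.7 FPKM. Hsd17b7 was at 7.45 and 8.47 FPKM, with the nearest control, wild-type replicate 3, at 9.64 FPKM. Leaving out wild-type replicate 1 or 2 or either mutant library left 2 calls, and in a fit of the compared libraries alone there were none.

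At 144 h in Del(CBS1-5), 6 genes were lower and 1 higher, with 10.8% of all genes lower and 19.9% higher. After Hmgcs1 came Hsd17b7 (-0.62), Mvk (-0.53), Srebf1 (-0.48), Fasn (-0.44) and Scd2 (-0.37). Hsd17b7 was at 7.97 and 7.71 FPKM against 11.9 to 12.4 FPKM in the controls, a spread of less than 1 FPKM. Mvk was at 25.3 and 27.0 FPKM against 30.1 to 47.2 FPKM and Scd2 at 427 and 435 FPKM against 527 to 587 FPKM. Elovl6, the elongase from C16 to C18, was higher, at 41.4 and 40.1 FPKM against 26.3 to 33.0 FPKM (0.47 ± 0.11). Without mutant replicate 1 there were 4 calls. At 120 h limma called no gene of the set, 6 had an unadjusted p under 0.05, and 5.07% of all genes were called higher and 2.78% lower. Without wild-type replicate 3 there were 8 calls at 120 h, all of a higher level.

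The 5 pluripotency markers summed to 723 FPKM in both Del(CBS1-5) libraries at 96 h, to 596 and 679 FPKM at 120 h and to 776 and 861 FPKM at 144 h, against 49.2 to 333 FPKM, 35.2 to 325 FPKM and 5.59 to 106 FPKM in the controls, and none of the 5 was listed at 0. Other marker sums also lay outside the controls. At 96 h those of somites were lower (68.2 to 79.6 against 80.5 to 154.7 FPKM). Those of endothelium were higher (4.07 to 4.27 against 0.989 to 2.09 FPKM). At 120 h those of neuro-mesodermal progenitors (93.0 to 94.9 against 131 to 162 FPKM) and spinal cord were lower. Those of somites (525 to 538 against 422 to 483 FPKM) and endothelium were higher. The sums that follow are those at 144 h. Those of neuro-mesodermal progenitors (24.5 to 29.7 against 41.5 to 160.3 FPKM), presomitic mesoderm (9.89 to 11.2 against 27.0 to 51.8 FPKM) and spinal cord (24.4 to 26.2 against 41.8 to 74.7 FPKM) were lower. Those of somites (323 to 328 against 152 to 215 FPKM), endoderm (252 to 258 against 70.5 to 134 FPKM) and endothelium (26.3 to 29.4 against 18.3 to 19.4 FPKM) were higher. The part of all these markers in the results of Del(CBS1-5) was not tested.

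In Del(CBS4), Pmvk was the gene called at both stages. It was at 27.5 and 28.5 FPKM at 120 h, against 36.8, 38.8 and 54.9 FPKM, and at 33.6 and 34.0 FPKM at 144 h, against 45.0 to 48.9 FPKM. The log2 changes were -0.61 ± 0.14 (adjusted p = 0.00259) and -0.47 ± 0.13 (adjusted p = 0.0393). At 120 h Mvd (-0.52), Sc5d (-0.47), Dhcr7 (-0.34), Fads2 (-0.33) and Fads1 (-0.30) were lower too, 6 genes in all with none higher, against 8.31% of all genes lower and 4.14% higher. The highest control was wild-type replicate 4 for each of these but Fads2, and without that library 2 genes were called. Leaving out mutant replicate 1 or 2 left 3 or 1, and in a fit of the compared libraries alone there were none. At 144 h the call of Pmvk was the only one, with 1.52% of all genes lower and 1.89% higher. It was lost without either time-course control or either mutant library, and leaving out wild-type replicate 2 gave 2 calls. The spinal cord markers summed to 69.7 and 109 FPKM in Del(CBS4) at 120 h, against 6.72 to 26.9 FPKM in the controls, and the endoderm markers to 6.20 and 7.71 FPKM, against 39.8 to 174 FPKM. The pluripotency markers (13 to 16.9 against 49.1 to 77.1 FPKM) and the somite markers (217 to 311 against 405 to 509 FPKM) were lower than in the controls. Their part in the result was not tested.

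Del(sub-TAD1) at 96 h gave the most calls, and its 3 libraries did not stand together. With all 3, 15 genes were lower and none higher, with 5.37% of all genes lower and 8.69% higher, and the median was -0.38. The mutant libraries were below all controls for only 3 of the 29 genes, against 6.41% of all genes. Replicate 1 was at the level of the wild type and replicates 2 and 3 were below it. Fdps was at 175.7 FPKM in replicate 1 and at 103 and 104 FPKM in replicates 2 and 3, against 154.7 to 165.2 FPKM in the controls. Nsdhl, which removes a carboxyl group at C4 and was not called with all 3 libraries, was at 58.9 FPKM and at 28.9 and 28.8 FPKM. Sqle, the squalene epoxidase, was at 77.2 FPKM and at 48.8 and 45.0 FPKM, against 72.2 to 89.6 FPKM. The genes called, by the size of their log2 change, were Fads2 (-0.51), Hmgcs1 (-0.50), Sqle (-0.49), Srebf2 (-0.49), Mvd (-0.49), Hsd17b7 (-0.48), Scd1 (-0.47), Dhcr7 (-0.47), Insig1 (-0.43), Mvk (-0.43), Lss (-0.42), Acat2 (-0.42), Fdps (-0.38), Fads1 (-0.31) and Scd2 (-0.26). Hmgcs1 was at 164, 126 and 115 FPKM against 148, 187 and 243 FPKM.

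Replicate 1 was the highest of the 3 libraries for 25 of the 29 genes, against 50.5% of all genes, and its median distance from the mean of the other libraries was 0.49 on the log2 scale. Without it, 20 genes were lower and the median was -0.57. Without replicate 2 or 3, 7 or 5 were lower, without replicate 2 of the time course 9, and in a fit of the compared libraries alone none. Fads1 (-0.31 ± 0.06), Fads2 (-0.51 ± 0.10), Dhcr7 (-0.47 ± 0.10) and Srebf2 (-0.49 ± 0.11) passed without each library in turn. The pluripotency markers summed to 107 FPKM in replicate 1, 385 FPKM in replicate 2 and 455 FPKM in replicate 3, against 64.1 to 95.5 FPKM in the controls, and the somite markers to 320.7, 128 and 98.5 FPKM. Among these 3 libraries, the replicates with low sterol genes were thus those with high pluripotency markers. It was the other way among the mt-high wild type at 120 h. There, replicate 3 had the highest pluripotency sum and was the highest library for 25 of the 29 genes. The part of these markers was not tested. Of the 24 further pathway genes 6 were lower and 1 was higher, and Aacs, the acetoacetyl-CoA synthetase, was among the lower ones (-0.51 ± 0.13).

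At 120 h in Del(sub-TAD1) limma called no gene of the set, with 4.56% of all genes higher and 2.09% lower and 10 members at an unadjusted p under 0.05. The log2 change was above 0 for 26 of the 29 genes, with a median of 0.23. Without wild-type replicate 3 at 120 h there were 10 higher calls. That library and its relation to the others are described further on.

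At no stage did the following genotypes, all of them mt-high, give a call in the set. For Del(CBS1), Del(CBS2), Del(CBS1-2) and Del(d1-d4) at 96 h and 120 h, limma called between 0.0526% and 0.778% of all genes in a direction (0.544% higher in Del(CBS1-2) at 96 h), and none of the 29. At an unadjusted p under 0.05 there were 3 and 2 genes in Del(CBS1-2) at 96 h and 120 h, 2 and 0 in Del(CBS1), 1 and 2 in Del(CBS2), and 2 and 0 in Del(d1-d4). The log2 change of a member with the greatest size in these 8 comparisons was 0.39. In simulated data of a comparison with 2 mutant libraries, that of Ins(2xCBS-d4d8) at 96 h, 31.8% of changes of 0.5 on the log2 scale were recovered. The changed genes were drawn from all genes tested, so that the share may differ for the set. Small changes in the set may have gone uncalled.

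At 120 h, single wild-type libraries also stood above the others for most of the set, while at 96 h and 144 h the median distances of the wild-type libraries lay between -0.12 and 0.13. Among the 3 mt-high wild-type libraries at 120 h, replicate 3 was the highest for 25 of the 29 genes, against 42.7% of all genes, with a median distance of 0.34 on the log2 scale. Among the 3 mt-low ones, replicate 4 was the highest for 21 genes, against 34.7%, with a median of 0.38. The ratio of the highest to the lowest library had a median over the 29 genes of 1.28 in the first group and 1.44 in the second, against 1.12 and 1.27 for the mt-high and mt-low wild type at 96 h, 1.13 for the wild type at 144 h and 1.63 between the stages of the time course. The pluripotency markers summed to 325 FPKM in replicate 3 and to 36.2 and 35.2 FPKM in the other two of its group. Their part in its high values was not tested.

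**Figure D4:**
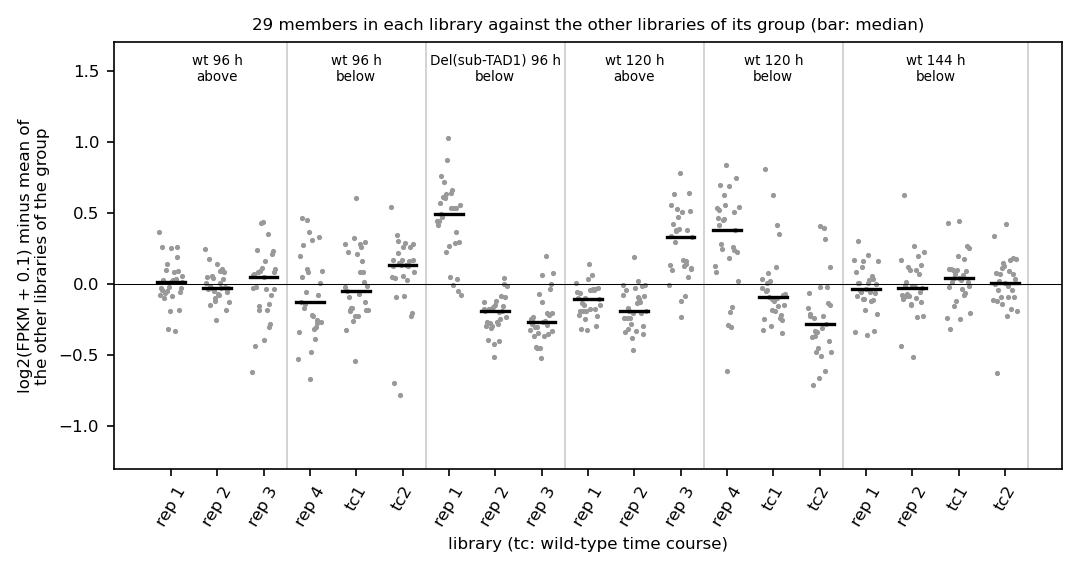
Difference of each library from the mean of the other libraries of its group, on the log2(FPKM + 0.1) scale, for the 29 genes (points) with their median (bar). Replicate 1 of Del(sub-TAD1) at 96 h and replicates 3 and 4 of the wild type at 120 h stand above the rest of their groups, with medians of 0.49, 0.34 and 0.38.

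Whether an effect differed between stages of one genotype was tested in 10 pairs. Del(sub-TAD1) at 120 h against 96 h gave 12 genes with a higher effect at the later stage, with 1.92% of all genes higher. Del(CBS1-5) at 144 h against 96 h gave 3 genes with a lower effect, Srebf1, Fasn and Mvk, with 4.89% of all genes lower, and at 144 h against 120 h it gave Fasn, with 2.34% lower. In these pairs one stage is mt-high and the other mt-low, so that stage and side cannot be told apart. In the other 7 pairs no gene of the set was called.

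The sides themselves differed in the wild type. Between mt-high and mt-low libraries 15 genes of the set were called at 96 h, with 40.3% of all genes, and 23 at 120 h, with 37.8%. Some of the genes have near-identical copies whose listed level moved with the side. Gm13502, a processed pseudogene with a stretch of 684 bases identical to Idi1, had a median of 29.5 FPKM in mt-high and 0.182 FPKM in mt-low libraries. Gm3571, a copy of Fdps, had 19.1 and 0.374 FPKM, and Gm6781, a copy of Fdft1, had 4.29 and 0.0863 FPKM. Values of Idi1, Fdps, Fdft1, Acaca and Insig1 are uncertain to that extent, though no comparison of a mutant with wild type crosses the sides. Acat2 and Tcp1, Fdft1 and Ctsb, and Tm7sf2 and Vps51 also share transcript sequence with each other.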

How the data were processed

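The authors trimmed the stranded poly-A reads with cutadapt 1.16, aligned them to mm10 with STAR 2.7.7a and computed FPKM per gene with Cufflinks 2.2.1, and the deposited values are these FPKM, without counts. Depth was therefore inferred from the steps of 1 fragment at low values, over genes with 1 transcript and no more than 10 fragments, and values within 0.02 of an integer were taken as whole. Between 70.7% and 98.2% of such values came out whole.

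Samples were grouped by their titles. Log2(FPKM + 0.1) of the 61 libraries was fitted with limma 3.58.1 in R 4.3.3, without weights. The time course used 1 coefficient per genotype, stage, series and side of 100 FPKM of mt-Co2 and mt-Co3, and the mutants the same without series. P-values were adjusted by Benjamini-Hochberg over 17098 genes per comparison, with a threshold of 0.05. Fold changes are on the log2(FPKM + 0.1) scale and understate those of low genes. The steps were tested on simulated data, and the recovered share is given for changes of 0.5 in the comparison named there.

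The members, roles and lists of further genes were chosen with earlier results of these data known, and the split by mt-Co2 and mt-Co3 was known too. Per comparison, up to 12 members past the threshold were named, largest change first (all 15 in Del(sub-TAD1) at 96 h), with up to the 3 largest of a further list, except some genes that are not reported here. Alternatives were a pseudocount of 1, no filter, upper-quartile scaling, other sets of libraries or controls, a replicate block, and each replicate left out. Transcripts were compared with BLAST 2.17.0.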

Additional observations from a re-analysis of the deposited data

Results flagged for a closer look

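In 3 groups of 4 wild-type libraries, 6 of 87 tests found a library far from the other 3 by Dixon's criterion, of which chance gives about 1 in 20. All were replicate 4 at 120 h or 96 h, the only mt-low library of its group. An odd library and the side cannot be told apart there. At 120 h it had 212.2 FPKM for Hmgcs1, 23.02 FPKM for Idi1 and 545.7 FPKM for Scd2, against 153 to 153.9, 49.7 to 53.6 and 375 to 389.8 FPKM in the others. At 96 h it had 51 FPKM for Pmvk, 44.19 FPKM for Mvd and 62.71 FPKM for Cyp51, against 36.4 to 37.7, 33.3 to 35.0 and 42.8 to 45.8 FPKM.

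Effects that differed between stages, by a contrast within the model, are given as the log2 effect at the later stage minus that at the earlier one. In Del(sub-TAD1) at 120 h minus 96 h they were 0.7068 for Hmgcs1, 0.6969 for Mvk, 0.826 for Mvd, 0.6745 for Fdps, 0.5589 for Fdft1, 0.7173 for Sqle, 0.7199 for Lss, 0.7976 for Dhcr7, 0.615 for Srebf2, 0.7655 for Scd1, 0.3288 for Fads1 and 0.7027 for Fads2. In Del(CBS1-5) at 144 h minus 96 h they were -0.607 for Mvk, -0.7224 for Srebf1 and -0.6814 for Fasn, and at 144 h minus 120 h -0.6606 for Fasn. The stages compared are not on the same side of 100 FPKM of mt-Co2 and mt-Co3.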

How the results depend on the processing

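Counts of members called are given, with all 61 libraries, a pseudocount of 0.1 and the filter as the reference. Depth was inferred only, and the cause of these shifts was not tested. With a pseudocount of 1, 168 h against 144 h gave 4. Without the filter on low values it gave 1, Del(CBS4) 3 at 120 h and 0 at 144 h, and Ins(2xCBS-d4d8) 5 at 96 h and 5 at 120 h. Upper-quartile scaling, which moved the median of all genes by less than 0.1, gave 2 at 120 h against 108 h, 7 at 144 h against 132 h, 4 at 168 h against 144 h, 3 and 2 in Del(CBS4) at 120 h and 144 h, 5 in Ins(2xCBS-d4d8) at 120 h and 2 in Del(CBS1-5) at 144 h minus 120 h. The 16 time-course libraries alone gave 2, 5, 0 and 1 at 84, 96, 108 and 168 h against the stage before. The compared libraries alone gave 0 in Del(CBS1-5), Del(sub-TAD1) and Ins(2xCBS-d4d8) at 96 h and in Del(CBS4) and Ins(2xCBS-d4d8) at 120 h, and 1 in Del(CBS1-5) at 120 h.

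With all wild type outside the time course as controls, the counts were 1 in Del(CBS1), 1 in Del(CBS1-2), 7 in Del(sub-TAD1) and 6 in Ins(2xCBS-d4d8) at 96 h, 1 in Del(CBS1-5) and 5 in Ins(2xCBS-d4d8) at 120 h, and 3 in Del(CBS1-5) and 0 in Del(CBS4) at 144 h. Under these controls, which mix the sides, 3 log2 changes turned to above 0: Fads2 in Del(CBS4) at 120 h (0.038), Scd2 in Del(sub-TAD1) at 96 h (0.0316) and Fads2 in Ins(2xCBS-d4d8) at 96 h (0.0423). Matched controls outside the time course only, chosen after seeing the data, gave 15 in Del(CBS4) and 22 in Ins(2xCBS-d4d8) at 120 h and 5 in Del(sub-TAD1) at 96 h, and those of the time course only gave 6 in Del(CBS4) at 144 h.

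Over all genes, same-numbered replicates deviated together little or not at all (correlations from -0.0793 to 0.0995). This does not show whether single genes are paired. Idi1 was higher in replicate 1 than in replicate 2 at every stage of the time course. With a replicate block, the counts were 3, 6, 0, 1 and 0 at 84, 96, 108, 144 and 168 h against the stage before, 1 in Del(CBS1), 1 in Del(CBS1-2) and 11 in Del(CBS1-5) at 96 h, and 10 in Del(CBS1-5) and 15 in Del(sub-TAD1) at 120 h. These counts are of either direction. No mutant library at 120 h was numbered 3, so the block sets wild-type replicate 3 aside there. Leaving that library out gave 8 calls in Del(CBS1-5) and 10 in Del(sub-TAD1), all higher. A block could not be fitted for Del(sub-TAD1) at 96 h, Ins(2xCBS-d4d8), and Del(CBS4) at 120 h.

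With each library left out in turn, a lone sample being assumed to vary like the other groups, the counts ranged from 4 to 5 at 84 h, 3 to 8 at 96 h, 0 to 1 at 108 h, 0 to 2 at 120 h, 0 to 3 at 132 h, 1 to 1 at 144 h and 0 to 0 at 168 h against the stage before. They ranged from 2 to 5 in Del(CBS1-5), 5 to 20 in Del(sub-TAD1) and 1 to 10 in Ins(2xCBS-d4d8) at 96 h, from 0 to 8 in Del(CBS1-5), 1 to 8 in Del(CBS4), 0 to 10 in Del(sub-TAD1) and 1 to 14 in Ins(2xCBS-d4d8) at 120 h, and from 4 to 9 in Del(CBS1-5) and 0 to 2 in Del(CBS4) at 144 h.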

Other observations

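Of the genes of fatty acid oxidation, most fell at one step of the time course. From 84 h to 96 h, 9 of the 10 genes listed were lower and 1 was higher, with 15.4% of all genes lower and 10.5% higher. The 9 include Acadvl, which rests on a listed 0. Hadhb, a subunit of the mitochondrial trifunctional protein, fell from 38.5 ± 0.81 FPKM (SD, n = 2) at 84 h to 10.4 ± 3.44 FPKM at 96 h (log2 change -1.92 ± 0.17, SE). Cpt1a, the carnitine palmitoyltransferase of the outer membrane, went from 0.566 ± 0.121 to 0.130 ± 0.041 FPKM (-1.54 ± 0.43). Acadvl, the very long-chain dehydrogenase, was at 11.6 ± 0.83 FPKM at 84 h and was listed at 0 in 1 of the 2 libraries at 96 h, so that no fold is given. Acaa2, a mitochondrial thiolase, was the gene that was higher (0.33 ± 0.11). Between the same stages the pluripotency markers went from between 603 and 644 FPKM to between 74.6 and 95.5 FPKM, those of neuro-mesodermal progenitors from between 875 and 1017 FPKM to between 152 and 409.7 FPKM, and those of somites from between 5.53 and 7.08 FPKM to between 123 and 279.6 FPKM. Their part in this result was not tested.

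Of 9 genes of cholesterol export and storage tested, 3 were higher and 5 lower at 168 h than at 72 h, with 27.7% of all genes higher and 25.7% lower. Abca1, the cholesterol exporter, was at 0.0731 ± 0.0013 FPKM at 72 h and at 2.58 ± 0.21 FPKM at 168 h (3.95 ± 0.31). Soat1, which esterifies cholesterol, went from 76.3 ± 7.48 to 21.0 ± 1.34 FPKM (-1.85 ± 0.08), and Apoe, an apolipoprotein, from 138 ± 64.9 to 23.8 ± 3.51 FPKM (-2.46 ± 0.50).

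In Del(CBS1-5) at 144 h, 6 of the 10 oxidation genes were higher and 1 was lower, with 19.9% of all genes higher and 10.8% lower. Cpt1a was at 1.33 FPKM on average (n = 2) against 0.521 ± 0.127 FPKM (n = 4). Acadm, the medium-chain dehydrogenase, was at 22.2 ± 0.46 FPKM (n = 2) against 12.4 ± 0.90 FPKM (n = 4), and Hadhb at 22.6 ± 0.05 FPKM against 12.9 ± 3.32 FPKM. Apoe was at 92.2 ± 11.2 FPKM there against 21.0 ± 10.03 FPKM. In Del(sub-TAD1) at 96 h, 6 of the 10 were higher and none was lower, with 8.69% of all genes higher. The 3 libraries of this group did not stand together for the set, and this count was not repeated without each of them. Their pluripotency markers summed to between 107 and 455 FPKM, against 64.1 to 95.5 FPKM in the controls. The part of these markers was not tested.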
